A study of Mus musculus with 6 samples.

Results

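Messenger RNA of 8 genes that bring iron into the cell, store it, release it or build it into iron-sulfur clusters and heme was measured in mouse hearts with and without Mrps5, a gene for a protein of the mitochondrial ribosome. The genes were taken by name: Tfrc, Slc40a1, Fth1, Ftl1, Nfs1, Iscu, Alas1 and Fech. Each matched a single row among the 54532 genes of the deposited table, and all 8 passed the filter on low values, which kept genes that averaged 0.5 FPKM or more. FPKM counts sequenced fragments per kilobase of a gene's length, corrected for the size of the library.

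The 3 control animals (Ctrl) were Mrps5 fl/fl, with loxP sites in both alleles. The 3 knockout animals (cKO) were Mrps5 fl/fl; MCM, and MCM is αMHC-MerCreMer, a Cre recombinase that is made in cardiomyocytes and becomes active with tamoxifen. Animals of both groups received tamoxifen at 8 weeks of age, 45 mg per kg per day for 5 days, and RNA of heart tissue, ventricular by the study's methods, was sequenced at 12 weeks after it. The methods also call the animals 12-week-old, so the age at sampling is uncertain. MCM was carried by cKO animals only, so effects of the transgene and of the deletion cannot be told apart, and cells other than cardiomyocytes keep their Mrps5.

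Mrps5 itself was measured as 5.20, 6.45 and 6.33 FPKM in replicates 1, 2 and 3 of Ctrl, and as 1.12, 1.23 and 1.31 FPKM in those of cKO (log2 fold change -1.65, limma adjusted p = 0.000202). Recovered depth was 15989322 to 24875499 reads per heart. The hearts did not all match the description of the animals: cKO replicate 2 had 0 FPKM of the Y-linked genes Ddx3y, Eif2s3y, Uty and Kdm5d and 10.7 FPKM of Xist, which was at most 0.127 FPKM in the other 5 hearts, whereas the study describes male mice only. This heart also held the lowest cKO value for 6 of the 8 genes and the highest for the other 2. Values with and without it are therefore given for each of the 8 genes. Summed atrial markers (6 genes) ranged from 131 to 2086 FPKM in Ctrl and from 579 to 1698 FPKM in cKO hearts. These ranges overlapped, and 0 of the 6 were called by limma or voom, also at an unadjusted p under 0.05, though all 6 lay above 0 with a median log2 fold change of 0.73. Nppa, which the paper also uses as a marker of hypertrophy, was called higher in 1 of 15 alternative settings of the fit.

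Iron reaches most cells bound to transferrin, which is taken up with the transferrin receptor, and it leaves through ferroportin. What is not used at once is held in ferritin, a shell of heavy and light chains. In mitochondria iron is joined with sulfur on a scaffold protein to form the clusters of the respiratory chain, and ferrochelatase inserts it into protoporphyrin to form heme. Iron regulatory proteins bind short hairpins, the iron-responsive elements, in the mRNAs of several of these genes. Bound at the 5′ end such a hairpin limits translation, and bound in the 3′ untranslated region it protects the mRNA from decay, which is how Tfrc is known to rise when cells are short of iron.

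To show which of the 8 mRNAs carry such hairpins, the GENCODE mouse release 21 transcripts were searched on their sense strand for an unpaired C, 5 bases, a loop spelled CAGTGN and 5 bases that pair with the first 5, with G to T pairs allowed. The hairpins printed here are 30 bases long, with the loop in capitals, and each lies in an annotated untranslated region. Tfrc carried 4 of them in its 3′ untranslated region, on the plus strand of GRCm38 at chr16:32631218-32631247, chr16:32631597-32631626, chr16:32631662-32631691 and chr16:32631709-32631738, in that order. Slc40a1 carried 1 in the 5′ untranslated region at chr1:45925465-45925494 on the minus strand, Fth1 1 at chr19:9982731-9982760 on the plus strand and Ftl1 1 at chr7:45459779-45459808 on the minus strand.
Tfrc element 1: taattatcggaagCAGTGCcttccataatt
Tfrc element 2: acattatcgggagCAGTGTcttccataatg
Tfrc element 3: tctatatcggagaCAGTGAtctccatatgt
Tfrc element 4: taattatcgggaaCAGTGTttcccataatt
Slc40a1 element 1: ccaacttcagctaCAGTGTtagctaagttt
Fth1 element 1: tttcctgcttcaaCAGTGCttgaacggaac
Ftl1 element 1: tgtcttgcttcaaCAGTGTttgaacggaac

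No match was found in the untranslated regions of Nfs1, Iscu, Alas1 and Fech. Of 11407 protein-coding genes searched, 115 (1.01%) held a match, 25 in the 5′ and 90 in the 3′ untranslated region. A match to these letters is a description and not a measurement of binding. Among the other genes of iron and heme biology that were read, Alas2, the erythroid form of the first enzyme of heme synthesis, held a 5′ match across a splice junction on chromosome X.
Alas2 element 1: tttggttcgtcctCAGTGCagggcaacagg

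Of the 8 genes, 1 was higher in cKO hearts (Tfrc) and 4 were lower (Slc40a1, Nfs1, Iscu and Fech), while Fth1, Ftl1 and Alas1 did not pass the test. These calls are from limma on log2(FPKM + 1), with p-values adjusted by the Benjamini-Hochberg procedure over the 12944 genes tested, and an adjusted p under 0.05 was called. On this scale the change of a gene with low values is understated. The background was high: 33.3% of all genes tested were called, 16.3% higher and 17.0% lower. For 5 of the 8 genes the values of the groups did not overlap, which was so for 51.2% of all genes tested. In tissue RNA, a smaller number of cells of a type and less RNA in each cell cannot be told apart.

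**Figure D1:**
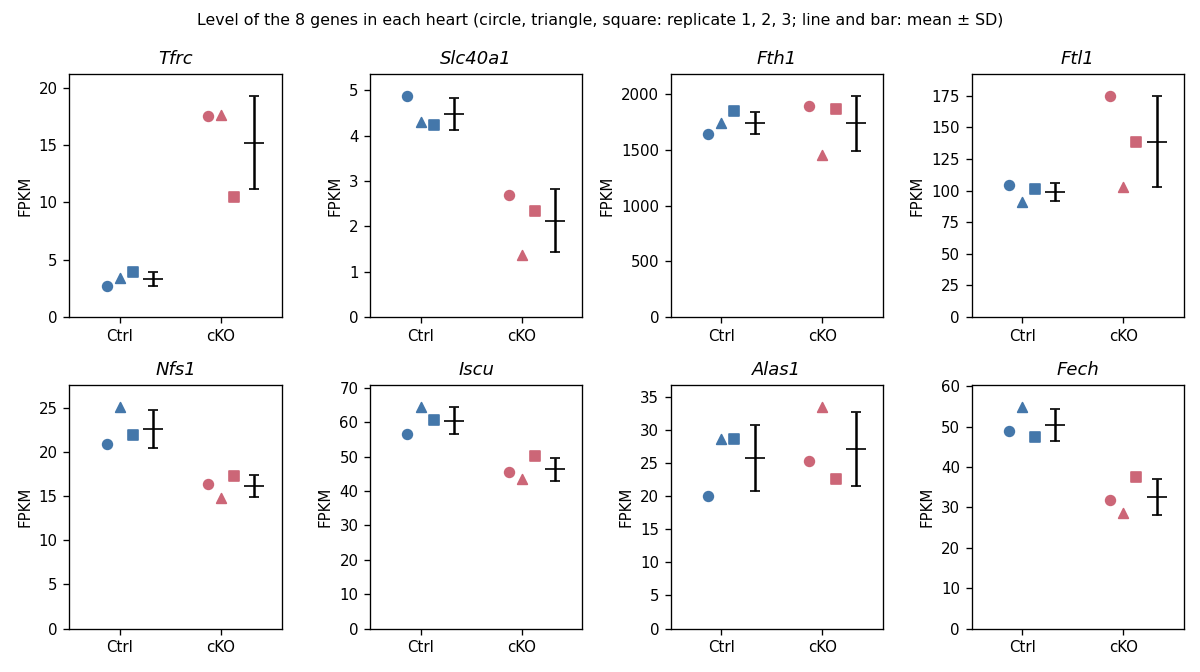
FPKM of the 8 genes (y axis, linear from 0, own scale for each gene) in 3 Ctrl and 3 cKO hearts, with circles, triangles and squares for replicates 1, 2 and 3 and the mean ± SD beside them. Tfrc lies at 10.5 to 17.6 FPKM in cKO against 2.73 to 3.96 in Ctrl, the groups are apart the other way for Slc40a1, Nfs1, Iscu and Fech, and they overlap for Fth1, Ftl1 and Alas1.

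Tfrc (GRCm38 chr16:32608920-32632794, plus strand, 19 exons) encodes the transferrin receptor and showed the greatest change of the 8. Its level was 2.73, 3.38 and 3.96 FPKM in the Ctrl hearts, given here and from now on in the order of replicates 1, 2 and 3, against 17.6, 17.6 and 10.5 FPKM in cKO. The lowest cKO heart thus held more than the highest Ctrl heart, and cKO replicate 3 stood below the other two of its group. The means were 3.36 ± 0.613 and 15.2 ± 4.09 FPKM (SD, n = 3 each), a 4.54-fold ratio, with a log2 fold change of 1.87 (SE 0.206, limma adjusted p = 0.00166). Leaving out cKO replicate 2 gave a log2 fold change of 1.76. From 322 to 592 reads lay behind each Ctrl value and 1634 to 2543 behind each cKO value.

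Slc40a1 (chr1:45908068-45926523, minus strand, 8 exons) encodes ferroportin, the only known exporter of iron ions from cells, and it fell. Its levels were 4.88, 4.30 and 4.24 FPKM in Ctrl and 2.68, 1.36 and 2.34 FPKM in cKO hearts, without overlap. The cKO mean of 2.13 ± 0.686 FPKM was 47.6% of the Ctrl mean of 4.47 ± 0.352 FPKM (log2 fold change -0.83, SE 0.166, adjusted p = 0.0103). Without cKO replicate 2, the lowest heart, the log2 fold change was -0.64 and still passed. In order of level per length, Slc40a1 thus stood above Tfrc in Ctrl hearts and below it in cKO hearts.

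Macrophages, which are known for high ferroportin, were followed with 13 markers whose sum was 212 to 314 FPKM in Ctrl and 176 to 269 FPKM in cKO hearts. Of the 13, 1 was called higher, 1 lower and none was at 0 in every heart, while 9 lay below 0, with a median log2 fold change of -0.12. At an unadjusted p under 0.05, limma and voom each placed 3 lower and 1 higher. By limma 23.1% of all genes were lower and 21.8% higher at this threshold. Among the macrophage markers, Cd163 is also one of the heme transport genes read further on. Summed endothelial markers were lower and did not overlap, at 144 to 168 FPKM in Ctrl and 95.8 to 113 FPKM in cKO, with 5 of 8 called lower, a median log2 fold change of -0.61 and none at 0. Summed cardiomyocyte markers were 19540 to 24684 FPKM in Ctrl and 12492 to 20400 FPKM in cKO, with 6 of 10 called lower, a median of -0.60 and none at 0. Summed fibroblast markers were 158 to 184 FPKM in Ctrl and 147 to 159 FPKM in cKO, with 2 of 8 called higher, 1 lower and none at 0. The part of these cell types in the change of any of the 8 genes was not tested.

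Fth1 and Ftl1 encode the heavy and light chains of ferritin. Fth1 (chr19:9982703-9985092, plus strand, 5 exons) was the most abundant of the 8 by far, at 1645, 1739 and 1844 FPKM in Ctrl and 1894, 1451 and 1866 FPKM in cKO hearts. The cKO hearts lay on both sides of the Ctrl range, with replicate 2 below it and the other two above it. The means were 1742 ± 99.7 and 1737 ± 248 FPKM, and the log2 fold change was -0.01 (SE 0.126, adjusted p = 0.946), which turned to 0.08 when hearts were scaled without the genes of mitochondrial DNA and to 0.11 without cKO replicate 2.

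Ftl1 (chr7:45457944-45459884, minus strand, 5 exons) was at 104, 91.1 and 101 FPKM in Ctrl and 175, 103 and 139 FPKM in cKO hearts. cKO replicates 1 and 3 lay above all Ctrl hearts and replicate 2 lay among them. The means were 98.9 ± 6.99 and 139 ± 36.2 FPKM and the log2 fold change was 0.45 (SE 0.185, adjusted p = 0.102). Without cKO replicate 2 it was 0.65 with an adjusted p of 0.0131 (limma), so whether Ftl1 was called depended on that heart. Its level is uncertain for a second reason: 910 of the 968 bases of its main transcript (94.0%) had a copy of at least 95% identity in 1 or more of 5 other genes. The nearest, Ftl1-ps1, matched at 99.6% identity and was counted at 2.91 to 6.33 FPKM, and reads of such copies may have been counted either way.

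The chains were also compared with each other. Heavy to light chain, Fth1 FPKM over Ftl1 FPKM, was 15.7, 19.1 and 18.2 in Ctrl hearts and 10.8, 14.1 and 13.5 in cKO hearts. Every cKO ratio was below every Ctrl ratio, with means of 17.7 ± 1.74 and 12.8 ± 1.75 (SD, n = 3 each) and an exact permutation p of 0.1, two-sided, the smallest that 3 against 3 hearts allow. Adding the FPKM of the pseudogenes named for each chain gave a difference of -4.67 in place of -4.88. The sum of both chains, 1749, 1830 and 1945 FPKM in Ctrl and 2069, 1554 and 2004 FPKM in cKO, overlapped, with an exact permutation p of 0.9.

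Nfs1 (chr2:156123639-156144186, minus strand, 13 exons) encodes the cysteine desulfurase that supplies the sulfur of iron-sulfur clusters, and Iscu (chr5:113772748-113778288, plus strand, 5 exons) encodes the scaffold on which they form. Both fell. Nfs1 was at 20.9, 25.1 and 21.9 FPKM in Ctrl and 16.3, 14.9 and 17.2 FPKM in cKO hearts. All cKO hearts were below all Ctrl hearts, and the mean went from 22.6 ± 2.20 to 16.1 ± 1.21 FPKM, 71.4% of Ctrl (log2 fold change -0.46, SE 0.0951, adjusted p = 0.0115). It was -0.41 without cKO replicate 2 and passed.

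Iscu was at 56.4, 64.3 and 60.5 FPKM in Ctrl and 45.4, 43.4 and 50.0 FPKM in cKO hearts, again without overlap. Its mean went from 60.4 ± 3.95 to 46.3 ± 3.38 FPKM, 76.6% of Ctrl (log2 fold change -0.38, SE 0.0862, adjusted p = 0.0165). It was -0.33 without cKO replicate 2 and passed. The call was lost without Ctrl replicate 2 (adjusted p = 0.0585) and without Ctrl replicate 3 (adjusted p = 0.0558), both by limma. Iscu shared 504 of the 957 bases of its main transcript with Gm16437 at 98.4% identity, and Gm16437 was counted lower in cKO too, at 8.74 to 11.3 against 14.0 to 16.3 FPKM (adjusted p = 0.00842). Nfs1 shares 148 exonic bases with Romo1 on the opposite strand, a gene at 73.2 to 115 FPKM, so without known use of strand in the counting some reads of either may have been given to the other.

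Heme synthesis starts with 5-aminolevulinate synthase, of which Alas1 is the form of all tissues, and ends with ferrochelatase, the product of Fech. The first step did not pass the test and the last one fell. Alas1 (chr9:106233455-106248654, minus strand, 11 exons) was at 20.0, 28.5 and 28.6 FPKM in Ctrl and 25.3, 33.4 and 22.6 FPKM in cKO hearts. The groups overlapped, and the spread within each was wider than the difference between the means of 25.7 ± 4.93 and 27.1 ± 5.64 FPKM (log2 fold change 0.07, SE 0.185, adjusted p = 0.796). The sign turned to -0.09 without cKO replicate 2, the highest heart.

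Fech (chr18:64456550-64489066, minus strand, 11 exons) was at 48.9, 54.8 and 47.5 FPKM in Ctrl and 31.8, 28.6 and 37.4 FPKM in cKO hearts, without overlap. The cKO mean of 32.6 ± 4.47 FPKM was 64.7% of the Ctrl mean of 50.4 ± 3.87 FPKM (log2 fold change -0.62, SE 0.113, adjusted p = 0.00769). Without cKO replicate 2 it was -0.53 and passed. Red blood cells and their precursors also use these enzymes. Of 8 red blood cell markers 7 were matched in the table and none was at 0 in every heart, their sum was 869 to 2033 FPKM in Ctrl and 578 to 1572 FPKM in cKO hearts, and of the 5 that could be tested 0 were called by limma or voom, also at an unadjusted p under 0.05. All 5 nevertheless lay below 0, with a median log2 fold change of -0.71 beside the -0.62 of Fech, and 1 of them was called lower without cKO replicate 3 (limma adjusted p = 0.0121). Cardiomyocyte and endothelial markers had medians of -0.60 and -0.61, with 6 of 10 and 5 of 8 called lower. The part of any of these cell types in the fall of Fech was not tested.

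Ordered by mean level per length in Ctrl hearts, the 8 genes ran from Fth1 through Ftl1, Iscu, Fech, Alas1, Nfs1 and Slc40a1 to Tfrc, and in cKO hearts only Slc40a1 and Tfrc changed places. Most neighbours in this order had ranges that did not touch. In Ctrl hearts Alas1, from 20.0 to 28.6 FPKM, overlapped Nfs1, from 20.9 to 25.1 FPKM. In cKO hearts Fech, from 28.6 to 37.4 FPKM, overlapped Alas1, from 22.6 to 33.4 FPKM, and Nfs1, from 14.9 to 17.2 FPKM, lay within the range of Tfrc, from 10.5 to 17.6 FPKM.

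**Figure D2:**
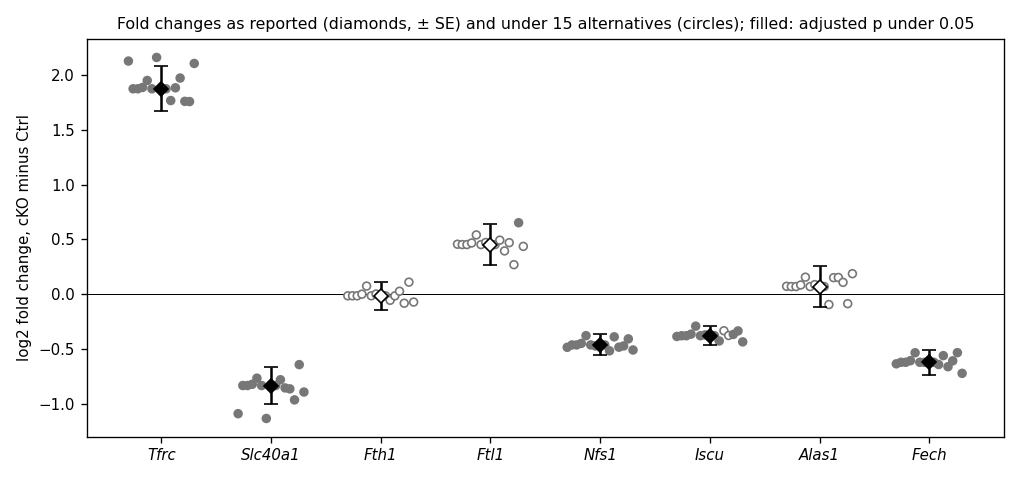
log2 fold change of each of the 8 genes (y axis, cKO minus Ctrl) as reported (diamond, ± SE) and under 15 alternative settings (circles), filled where the adjusted p is under 0.05. Tfrc, Slc40a1, Nfs1 and Fech stay filled in all 15 and Iscu in 13, Ftl1 is filled in 1, and Fth1 and Alas1 in none, with values on both sides of 0.

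The same fit was read for 127 further genes in 9 lists of iron, iron-sulfur and heme biology, of which 113 passed the filter. Of these, 17 were higher and 33 lower in cKO hearts, 44.2% against 33.3% of all genes, with a median log2 fold change of -0.10 against -0.02 over all genes. The balance moved with the scaling: without the genes of mitochondrial DNA in the total, 21 were higher and 24 lower, and over all genes 2649 were higher and 1620 lower in place of 2110 and 2205, with a median of 0.05. The share of FPKM from mitochondrial DNA was 39.6% to 42.1% in Ctrl and 33.3% to 38.0% in cKO. Without cKO replicate 2 the count was 18 higher and 28 lower. Leaving out Ctrl replicate 2 or 3 reduced the lower calls to 20 and 21.

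**Figure D3:**
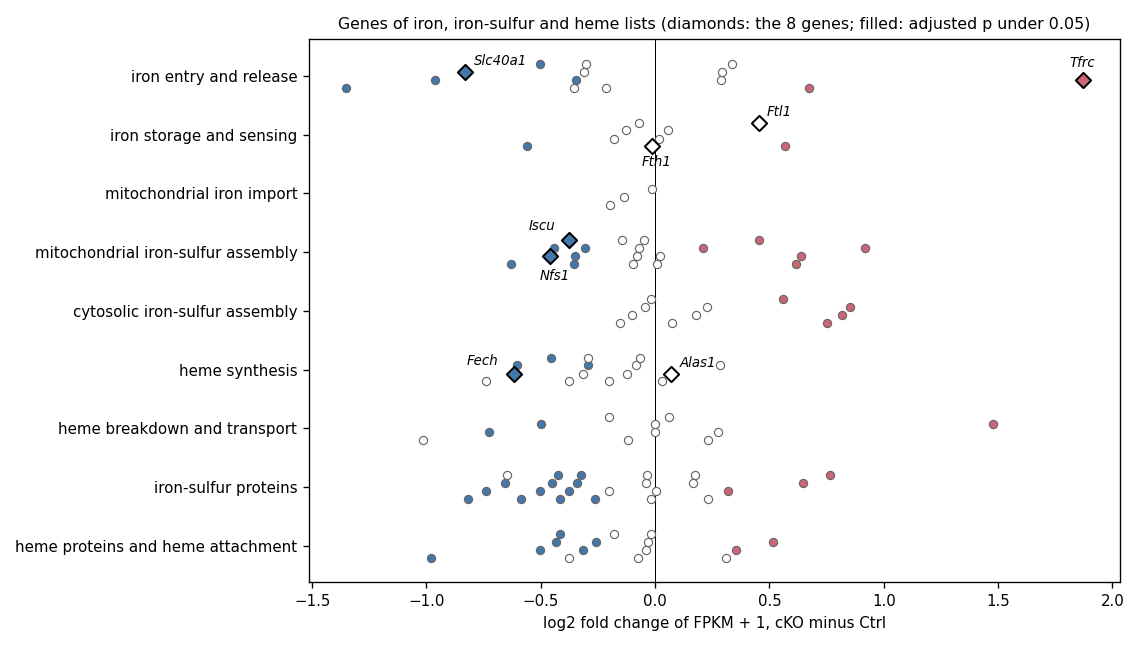
log2 fold change of FPKM + 1 (x axis, cKO minus Ctrl) of every gene tested in 9 lists, 1 row per list, with red for higher, blue for lower and open symbols for genes that did not pass; diamonds are the 8 genes. Cytosolic iron-sulfur assembly holds 4 red and 0 blue points, mitochondrial iron-sulfur assembly 5 red and 5 blue circles, and heme synthesis 0 red and 3 blue circles. Of all genes tested, 16.3% were higher and 17.0% lower. The balance of higher and lower calls over all lists depends on the scaling.

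Around Tfrc and Slc40a1, the list of iron entry and release had 12 tested genes besides them, with 1 higher, 4 lower and a median of -0.31. Of these 12 genes 41.7% were called, against 33.3% of all genes. Slc39a14, a carrier for iron not bound to transferrin, was higher, at 7.18, 7.80 and 10.5 FPKM in Ctrl and 16.6, 12.4 and 13.2 FPKM in cKO (log2 fold change 0.67, adjusted p = 0.0183). Slc11a2, which moves iron out of the endosome after uptake by the transferrin receptor, missed the threshold at 0.34 (adjusted p = 0.0506), and passed in 6 of the 15 alternatives, among them leaving out cKO replicate 3 (adjusted p = 0.0359). Bmp6, the signal through which iron loading raises hepcidin in the liver, was lower, at 12.6, 12.6 and 13.0 FPKM in Ctrl and 7.06, 4.85 and 6.39 FPKM in cKO (-0.96, adjusted p = 0.00244). Bmp6 is known as a product of endothelial cells, whose markers were lower as given with Slc40a1. The part of endothelial cells in the fall of Bmp6 was not tested.

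Scara5, a receptor for light chain ferritin, was also lower (-1.35, adjusted p = 0.0265), as were Hjv, listed as Hfe2, the hemojuvelin co-receptor for Bmp6 (-0.50, adjusted p = 0.0339), and Steap3, an endosomal ferric reductase (-0.35, adjusted p = 0.0309). These calls were less firm by limma. The Hjv call was lost without any Ctrl heart in turn (adjusted p = 0.0708 to 0.0958), and that of Steap3 without every heart other than Ctrl replicate 2 (0.0532 to 0.0982). That of Scara5 was lost without Ctrl replicate 2 (0.0725), Ctrl replicate 3 (0.0858) or cKO replicate 1 (0.0506), and that of Slc39a14 without Ctrl replicate 1 (0.0580) or 2 (0.0635).

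Around ferritin, 7 genes of storage and sensing were tested besides the chains, with 1 higher and 1 lower. The 28.6% called was below the 33.3% of all genes. Pcbp1, a chaperone that loads iron into ferritin, was higher (81.5 ± 2.26 against 121 ± 1.98 FPKM, log2 fold change 0.57, adjusted p = 0.00191). Fbxl5, which marks iron regulatory protein 2 for degradation when iron is ample, was lower, at 4.98, 4.07 and 4.09 FPKM in Ctrl and 2.74, 2.51 and 2.69 FPKM in cKO (-0.56, adjusted p = 0.00493). The mRNAs of the regulatory proteins themselves, Aco1 (0.02, adjusted p = 0.912) and Ireb2 (-0.07, adjusted p = 0.507), did not pass, and neither did Ncoa4, the receptor for the turnover of ferritin (0.05, adjusted p = 0.674). No conclusion on the activity of the regulatory proteins can be read from their mRNA.

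Between the cytosol and the clusters, the importers of iron into mitochondria, Slc25a37 (-0.02, adjusted p = 0.880) and Slc25a28 (-0.20, adjusted p = 0.123), did not pass. Of the 3 genes in their list, limma and voom each placed 0 higher or lower, also at an unadjusted p under 0.05. Slc25a28 passed without cKO replicate 1 (adjusted p = 0.0432).

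Around Nfs1 and Iscu, the mitochondrial assembly list moved both ways, with 5 of 17 tested genes higher and 5 lower. Together 58.8% were called, against 33.3% of all genes. Hspa9, the mitochondrial chaperone that releases clusters from the scaffold, rose from 223, 239 and 229 FPKM to 449, 414 and 445 FPKM (log2 fold change 0.92, adjusted p = 0.000802). Nfu1, a late carrier of clusters, rose by 0.64 (adjusted p = 0.00255), and Gfer, a sulfhydryl oxidase of the intermembrane space, by 0.62 (adjusted p = 0.00379). Abcb8, a transporter of the inner membrane, fell by 0.63 (adjusted p = 0.00292). Glrx5, which passes clusters on from the scaffold, did not pass (0.02, adjusted p = 0.858).

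Of 11 cytosolic assembly genes tested, 4 were higher and 0 lower by limma, with a median of 0.18. The share called, 36.4%, was near the 33.3% of all genes. At an unadjusted p under 0.05, 6 were higher and 0 lower, by limma and by voom alike, a threshold that 44.9% of all genes passed by limma, 21.8% higher and 23.1% lower, and 45.3% by voom. Nubp1 and Nubp2, which together form the cytosolic scaffold, were at 1.82 ± 0.0937 and 3.78 ± 0.640 FPKM (0.75, adjusted p = 0.00342) and 11.8 ± 0.823 and 17.9 ± 1.91 FPKM (0.56, adjusted p = 0.00626) in Ctrl and cKO. Ciao2b, listed as Fam96b, a part of the targeting complex, rose from 48.5 ± 0.725 to 89.2 ± 15.8 FPKM (0.85, adjusted p = 0.00360), and Bola2, a partner of cytosolic glutaredoxin, from 6.09 ± 0.506 to 11.5 ± 1.52 FPKM (0.82, adjusted p = 0.00270). These 4 calls held in all 15 alternatives.

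Among 24 tested proteins that carry iron-sulfur clusters, 12 were lower and 3 higher, with a median of -0.29. The share called, 62.5%, was above the 33.3% of all genes, of which 17.0% were lower and 16.3% higher. Etfdh, which passes electrons from fatty acid oxidation to the respiratory chain, fell from 88.3 ± 2.92 to 49.8 ± 5.21 FPKM (-0.82, adjusted p = 0.00183), and the complex I subunit Ndufs1 fell from 79.7 ± 5.04 to 50.3 ± 4.87 FPKM (-0.66, adjusted p = 0.00361). Xdh, xanthine dehydrogenase, was lower as well (-0.74, adjusted p = 0.0102). Abce1, a cytosolic protein that recycles ribosomes, went the other way, from 9.10 ± 0.367 to 16.1 ± 0.553 FPKM (0.76, adjusted p = 0.000993).

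Between Alas1 and Fech, 13 further genes of heme synthesis were tested, and 3 were lower and 0 higher by limma, with a median of -0.29. The share called, 23.1%, was below the 33.3% of all genes. Alad, the second enzyme, went from 20.0 ± 1.51 to 12.8 ± 1.38 FPKM (-0.60, adjusted p = 0.00552), and Abcb10, an inner membrane transporter needed for heme synthesis, from 10.9 ± 0.632 to 7.67 ± 0.409 FPKM (-0.46, adjusted p = 0.00563). Urod was lower by a smaller amount (-0.29, adjusted p = 0.0175), and its call was lost without Ctrl replicate 2 (adjusted p = 0.0543) or 3 (adjusted p = 0.0657). Clpx, which activates and turns over the first enzyme, did not pass (-0.29, adjusted p = 0.0738). At an unadjusted p under 0.05, limma placed 6 of the 13 lower and 0 higher, and voom on the recovered reads 6 lower and 1 higher. Of all genes 23.1% were lower and 21.8% higher at this threshold by limma, and 22.6% and 22.7% by voom.

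Alas2 was at 11.8, 25.1 and 20.8 FPKM in Ctrl and 8.14, 8.20 and 17.6 FPKM in cKO hearts and did not pass (-0.74, adjusted p = 0.152). It was lowest in cKO replicates 1 and 2, the hearts with the lowest red blood cell marker sums, and passed without cKO replicate 3 (adjusted p = 0.0417). The part of red blood cells in these values was not tested.

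**Figure D4:**
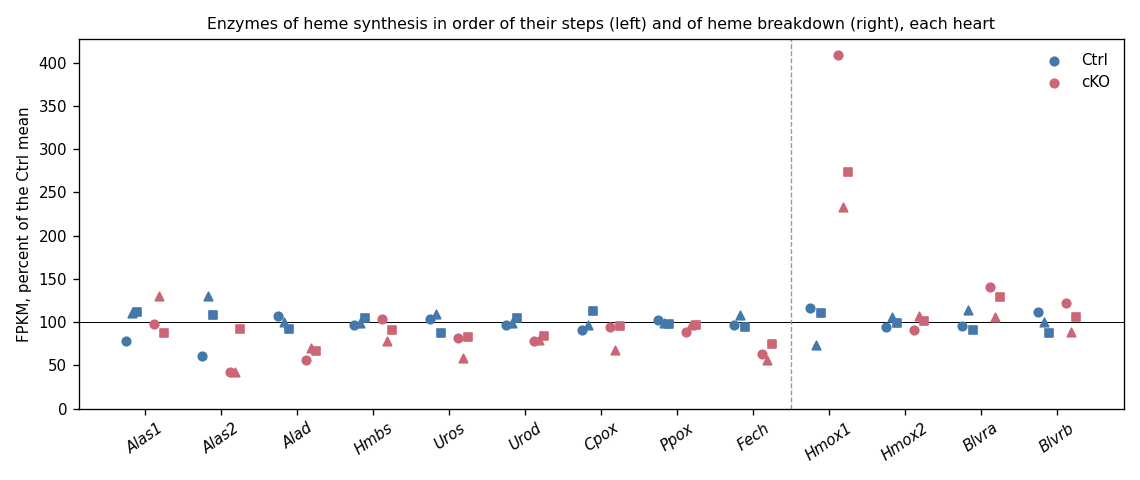
FPKM of the enzymes of heme synthesis in the order of their steps, and to the right of the dashed line of heme breakdown, in each heart as percent of the Ctrl mean of the gene (y axis, linear from 0), with replicates 1, 2 and 3 as circles, triangles and squares. Alad, Urod and Fech lie below 100% in all cKO hearts and passed the test, Alas1 scatters around it, and Hmox1 lies far above it, with a mean of 305% of Ctrl.

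On the breakdown side, 11 genes were tested, with 1 higher and 2 lower. This share, 27.3%, was below the 33.3% of all genes that were called. Hmox1, the inducible heme oxygenase that opens the heme ring and frees its iron, was at 9.14, 5.79 and 8.66 FPKM in Ctrl and 32.1, 18.3 and 21.5 FPKM in cKO hearts, without overlap (log2 fold change 1.48, SE 0.231, adjusted p = 0.00452). Flvcr2 was lower at 1.63 ± 0.337 against 0.584 ± 0.170 FPKM (-0.73, adjusted p = 0.00655). Bach1, the heme-binding repressor of Hmox1, was lower too (-0.50, adjusted p = 0.0217), a call lost without Ctrl replicate 2 (0.0625), Ctrl replicate 3 (0.0657) or cKO replicate 1 (0.0583).

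Of 15 tested genes for heme proteins and heme attachment, 6 were lower and 2 higher, 53.3% called against 33.3% of all genes. Myoglobin, Mb, the oxygen store of heart muscle and an abundant heme protein there, fell from 5448, 6640 and 5866 FPKM in Ctrl to 2751, 2990 and 3360 FPKM in cKO hearts (-0.98, adjusted p = 0.00235). Sdhc, which holds heme in complex II, fell by 0.51 (adjusted p = 0.00762), and Cyb5a by 0.43 (adjusted p = 0.0173), the latter not past the threshold without Ctrl replicate 1 (adjusted p = 0.0595) or 2 (adjusted p = 0.0541). Cyb5b, the cytochrome b5 of the outer mitochondrial membrane, rose by 0.51 (adjusted p = 0.00670).

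Promoters were searched for 3 short motifs that bear on these genes in the RefSeq windows that run from upstream of a gene's start into its first bases. Of the 8 genes 5 had entries, with 8 windows in all. The E-box CACGTG was in 0 of them, against 7.15% of 32851 windows. The antioxidant response element core TGACNNNGC was in 1, that of Nfs1, against 12.4% of windows, and the amino acid response element core TGATGNAA in 0, against 3.97%. Both strands were searched, and the absence of these letters in the window says nothing of the factors that bind them.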

How the data were processed

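Poly-A selected RNA of 3 Ctrl and 3 cKO hearts was sequenced as paired ends. The authors aligned reads with HISAT2 2.0.5, counted them per gene with featureCounts 1.5.0-p3 and deposited FPKM values, with the gene length as an other, gene-level value. DESeq2 1.16.1 in the submitters' processing notes was the authors' own test. These notes name mm9, yet all 54409 identifiers shared with GENCODE mouse release 21 lay on the same chromosome and 53499 had the same start and end, so coordinates are those of GRCm38. The use of strand and of reads with several alignments in counting is not given in the sources used here. FPKM times length was a whole number of reads, within 0.01 read, for 100% of values. The library sizes these values imply were 0.913 to 0.980 times the recovered total in Ctrl and 1.06 times in cKO, so the values had been scaled between hearts.

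Values were tested as log2(FPKM + 1) with limma 3.58.1 in R 4.3.3 (lmFit, eBayes with trend, no covariates, two-sided), for genes that averaged 0.5 FPKM or more, with Benjamini-Hochberg adjustment over all of them. Ferritin ratios and sums, 1 value a heart, were compared by exact permutation. The labels number the replicates and do not name animals, and the paper calls them biological repeats. Each was taken as a separate heart, and no 2 libraries held the same values. The 8 genes and all lists were chosen with earlier results of these data known. Named besides them are Mrps5, 15 genes chosen for their role, and in each list up to 4 further genes with the greatest change past the threshold, no overlap of the groups and 1 FPKM or more in the higher one. A few of them are counted but not reported here. Genes copied elsewhere were sought with blastn, at 95% identity over at least 150 bases. The fit was also run on simulated data in which far fewer genes changed than were called here. That run therefore does not give the error rate of these calls. The fit was repeated with a pseudocount of 0.1, without the filter or with 1 FPKM as the minimum, with 2 other scalings, eBayes without trend, voom on recovered reads, protein-coding genes only, a replicate block and leaving out each heart in turn.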

Additional observations from a re-analysis of the deposited data

How the results depend on the processing

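The calls of Tfrc, Slc40a1, Nfs1 and Fech held under all 15 alternatives. Leaving out each heart in turn gave log2 fold changes of 0.27 to 0.65 for Ftl1, which passed only without cKO replicate 2 (limma adjusted p = 0.0131), and of -0.43 to -0.33 for Iscu, which did not pass without Ctrl replicate 2 or 3. Fth1 ranged from -0.0811 to 0.111 and Alas1 from -0.0933 to 0.188 in the same way. The sign of Fth1 also turned with median-of-ratios scaling (0.0013), with scaling without the genes of mitochondrial DNA (0.0752) and with voom on the recovered reads (0.0029). The cause was not tested. Leaving out hearts gave 1 to 2 of the 8 genes higher and 3 to 4 lower, 13 to 18 of the list genes higher and 20 to 28 lower, and 1396 to 1977 of all genes higher and 1423 to 2011 lower, from fewer hearts in each fit. The summed ferritin difference of 34.2 FPKM ranged from -62.4 to 195 FPKM. Hearts with the same replicate number showed little common deviation (correlations of their deviations of -0.06, 0.17 and -0.01), and only those of number 2 correlated best with each other. With so few hearts this cannot decide whether the numbers pair them. The paper describes the controls as littermates, but the labels do not say which animals shared a litter. With the replicate block the calls of the 8 genes did not change, 16 list genes were higher and 30 lower, 1874 and 1982 of all genes were higher and lower, and the call of Hjv was lost. The blocked exact p was 0.25 for the ferritin ratio, the smallest that 3 pairs of hearts allow, and 0.75 for the sum.

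Of the further values of named genes, 582 kept direction and call, 30 lost it, 8 gained it and 10 changed sign. All 10 were of genes with no call: Hamp ranged from -0.61 to 0.87, Aco1 from -0.0487 to 0.0752, Ncoa4 from -0.0110 to 0.110, Glrx5 from -0.0175 to 0.0719 and Slc25a37 from -0.0339 to 0.00615 when hearts were left out, and Slc25a37 was 0.0522 when scaled without the genes of mitochondrial DNA. Without the filter, which puts more genes under test, the calls of Steap3, Hjv, Scara5, Slc39a14 and Bach1 were lost, and with scaling without the genes of mitochondrial DNA those of Steap3, Hjv, Urod and Cyb5a. The lowest value of the 8 genes, that of Slc40a1 in cKO replicate 2, rested on 286 reads. The part of depth in these results was not tested. With 3 hearts a group, an exact test of a single value cannot go below 0.1.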

Other observations

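For each of the 8 genes, the 2 protein-coding genes of at least 5 FPKM whose profile over the 6 hearts lay nearest were sought among 5512 candidates, by the root mean square difference of log2(FPKM + 1) after the Ctrl mean was taken off. The 6 points include both groups, so a gene that moves as far between the groups is near by that alone. Tfrc had few genes like it: the nearest were Phlda3, at 7.74 to 8.17 FPKM in Ctrl and 28.4 to 36.5 FPKM in cKO, with a difference of 0.173, and Pfkp at 0.216, and none of the candidates lay within 0.1. Slc40a1 lay nearest to Cdkn1c (0.0814) and Mettl7a1 (0.0838), both lowest in cKO replicate 2 as Slc40a1 was. Iscu lay nearest to Atpaf1 (0.0187) and Uqcrh (0.0243), with 297 candidates within 0.1. Nfs1 lay nearest to Nt5dc2 (0.0344) and Romo1 (0.0351), and the latter overlaps Nfs1 on the other strand. Fech lay nearest to Prepl (0.0481) and Cox6c (0.0498), Fth1 to Mecr (0.0382) and Supt4a (0.0432), and Ftl1 to Arhgap44 (0.0713) and Grn (0.0752), the gene of the lysosomal protein progranulin. Alas1 had none within 0.1, and the nearest were Tuba8 (0.113) and Gm11361 (0.127).

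Hamp, the gene of hepcidin, the hormone that makes ferroportin leave the cell surface, was at 3.45, 1.88 and 0.403 FPKM in Ctrl and 0.432, 1.04 and 10.3 FPKM in cKO hearts. The means were 1.91 ± 1.53 and 3.92 ± 5.52 FPKM (SD, n = 3 each), the ranges overlapped, and Hamp did not pass (log2 fold change 0.29, limma adjusted p = 0.803). Within each group its order over the hearts was that of Myl7, a marker of atrial muscle, at 679, 98.6 and 18.1 FPKM in Ctrl and 71.8, 170 and 495 FPKM in cKO. The part of atrial tissue in the level of Hamp was not tested.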
